A study of Oncorhynchus mykiss with 8 samples.

Results

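Mx proteins are large GTPases of the dynamin family that block the replication of many viruses. Cells make them when interferon, released by infected cells, binds its receptor and the JAK-STAT pathway switches on a set of interferon-induced genes. In fish the Mx transcripts are widely used as a read-out of that antiviral state, and skeletal muscle is one of the tissues in which they can be induced.

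Two-colour array ratios of the Mx genes in white muscle of rainbow trout are described here. The members are 2 probes of 43603 on the array. Probe A_05_P248684 is named interferon inducible mx protein by the study and mx1 by the platform annotation, and probe A_05_P246154 carries the platform symbol mx2. They were chosen by name with their log2 ratios on these arrays already known, and the study had listed the former for Dec. muscle as higher in small fish. Their own values are therefore given as a description with no test. The platform annotation holds 1 further Mx probe, A_05_P429242, which is also named mx1 and is paired with the same transcript record as A_05_P248684. It was not a member and is set beside them.

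The fish were unmanipulated, immature trout of the commercial Lyndon strain in their second year, of like age in both lots, on a commercial ration and without a recorded disease outbreak. A lot came from 1 sire and several dams, so sire, dams, spawning season and day length at sampling cannot be told apart between lots. The 4 groups were large and small fish of the Sept. lot and of the Dec. lot. Each pool joined mRNA from 5 fish of equal size rank, a single fish per family, and a large and a small pool were hybridised together with Alexa Fluor 555 and Alexa Fluor 647 and again with the dyes exchanged. This gave 4 arrays for the 2 pool pairs of a lot and 8 arrays altogether. Since swapped arrays carry identical RNA, n is 2 pool pairs for a lot, and this small number limits the precision of every ratio. Values are log2(large/small), with positive values for transcripts higher in large fish. The labels do not settle this direction, and it is likely because 966 of 966 named muscle listings of the study took its sign when the deposited columns were negated, with swapped columns taken as already turned to the same direction. The labels do not state that turn either. Across probes, 3 of the 4 dye swaps correlated below 0 (-0.26, -0.17 and -0.11) and the Dec. pair 2 swap at 0.47, whereas arrays of different pools with the same dye orientation correlated at 0.03 to 0.41. A mean over a swap therefore averages ratios that on most swaps did not rise and fall together, and the values of single arrays are given beside it.

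The array was built on Atlantic salmon sequences, and 0 of the 221 platform accessions were found among the trout transcripts of RefSeq (assembly USDA_OmykA_1.1). By symbol and synonym, trout have an mx gene (also called mx1) and an mx2 gene on the same chromosome, with 2 annotated genes between them. How far a salmon probe for 1 of these related genes also reports the other in trout was not tested, and no probe sequence was read here. Ratios hold no expression level, so whether the muscle transcribed Mx strongly or at the edge of detection is not known from them.

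In the Dec. lot the mx1 probe A_05_P248684 was higher in small fish on 4 of 4 arrays. In pool pair 1 its log2(large/small) was -0.70 with the large fish in Alexa Fluor 555 and -0.13 with them in Alexa Fluor 647. In pool pair 2 it was -0.45 and -0.63. The pool pairs thus lay close together, at -0.41 and -0.54, although the swapped arrays of pair 1 were 0.57 apart. The lot mean was -0.48 ± 0.11 (SE of limma's fit, n = 2 pool pairs), which is 1.39-fold higher in small fish. Of 39770 Dec. probes, 7.56% were below 0 on all 4 arrays and 4.59% had a lower mean than this probe.

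In the Sept. lot the same probe had no common direction. Its log2(large/small) was 0.11 and 0.10 in pool pair 1 and 0.03 and -0.47 in pool pair 2, each time first with the large fish in Alexa Fluor 555. A single array, pair 2 with the large fish in Alexa Fluor 647, stood apart from the other 3. The pool pairs had opposite signs, 0.10 and -0.22, and the lot mean was -0.06 ± 0.11, less than its error. The Dec. minus Sept. difference was -0.42 ± 0.16, and the arrays of the lots overlapped, since the lowest Sept. array (-0.47) lay below the highest Dec. array (-0.13).

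The mx2 probe A_05_P246154 was also below 0 on 4 of 4 Dec. arrays, but by less. Its log2(large/small) was -0.06 and -0.21 in pool pair 1 and -0.30 and -0.04 in pool pair 2. The Dec. mean was -0.15 ± 0.07, or 1.11-fold higher in small fish, and 20.5% of the Dec. probes lay lower. Its Sept. values were -0.07 and -0.02 in pool pair 1 and 0.20 and -0.27 in pool pair 2, and the mean was -0.04 ± 0.07. The swapped arrays of Sept. pair 2, which hold the same RNA, were 0.47 apart, more than the mx2 mean of either lot. The Dec. minus Sept. difference was -0.12 ± 0.10, and it turned with the dye, from -0.25 with the large fish in Alexa Fluor 555 to 0.02 with them in Alexa Fluor 647.

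The other mx1 probe, A_05_P429242, did not share the Dec. direction. It was -0.28 and 0.51 in Dec. pool pair 1 and 0.29 and 0.02 in pool pair 2, above 0 on 3 of 4 arrays. Its mean was 0.13 ± 0.09 in the Dec. lot and -0.09 ± 0.09 in the Sept. lot. Neither passed limma's test (adjusted p = 0.566 and adjusted p = 0.9996), but 0 probes of the array passed it in either lot, so this does not set the probe apart. The Dec. mean of this probe leaned on the dye, at 0.004 with the large fish in Alexa Fluor 555 and 0.26 with them in Alexa Fluor 647. On each of the 4 Dec. arrays A_05_P248684 lay below A_05_P429242, by 0.42 to 0.74, with gaps of 0.53 and 0.70 in the pool pairs. In the Sept. lot the mean gap between these probes was 0.04 and its sign varied between arrays. Although both are annotated to 1 transcript, the Dec. difference between large and small fish was therefore seen with only 1 of them.

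**Figure D1:**
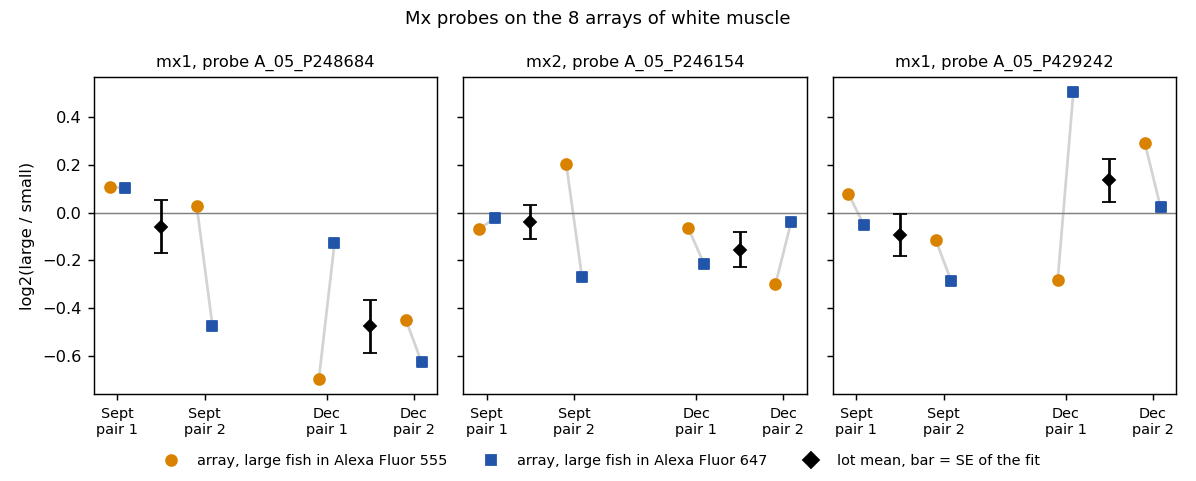
The log2(large/small) of the members A_05_P248684 and A_05_P246154 and of the further mx1 probe A_05_P429242 on each array. Circles and squares are arrays with the large fish in Alexa Fluor 555 and 647, grey lines join the arrays of a dye swap, and black diamonds are lot means with the SE of the fit (n = 2 pool pairs). The 4 Dec. arrays of A_05_P248684 lie between -0.70 and -0.13, while those of A_05_P429242 run from -0.28 to 0.51.

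By the root mean square difference over the 8 arrays, mx2 differed from A_05_P248684 by 0.33 and ranked 3154 among 38487 other probes with a value on every array. The further mx1 probe differed by 0.45 and ranked 16979. A_05_P248684 itself departed from 0 by 0.41 in the same measure, so a probe at 0 on every array would have lain closer to it than its annotated twin. Seen from mx2, which departed from 0 by 0.18, A_05_P248684 ranked 21367. From A_05_P248684, mx2 was thus nearer than a probe at 0 on every array, although many probes were nearer still. The measure weighs size as well as shape, so probes near 0 rank close to mx2, which itself lay near 0.

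Named probes that ran closest to A_05_P248684 had other functions. The nearest of all 38487 probes was mannose-p-dolichol utilization defect 1, a protein needed to use sugar donors in glycan synthesis, with a root mean square difference of 0.10 and Dec. and Sept. means of -0.48 ± 0.10 and -0.14 ± 0.10. Threonine aldolase 1 (0.14), zinc mym-type 4 (0.15), transposase (0.15) and dexamethasone-induced ras-related protein 1-like (0.15) came next among named probes. Each had its lowest Sept. value, as A_05_P248684 did, on the pair 2 array with the large fish in Alexa Fluor 647. Choosing probes by nearness over these same arrays favours such a shared low array, so it is no separate result. All 5 had been listed by the study as higher in small Dec. fish, and most named probes come from such lists, so the names say little about which transcripts run together. Nearest to mx2 were yrdc domain-containing mitochondrial-like (0.12), expressed sequence aw146154 (0.14), ahr2a, an aryl hydrocarbon receptor (0.14), copper transport protein atox1 (0.15) and spermatogenesis-associated protein 2 (0.15). Their Dec. means lay between -0.24 and 0.001, around the -0.15 of mx2.

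**Figure D2:**
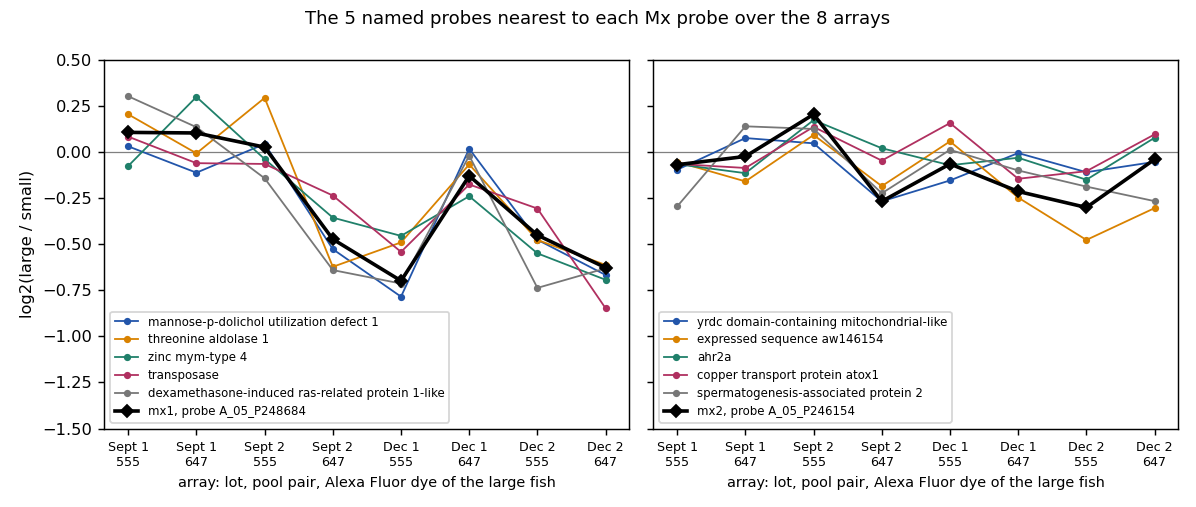
The log2(large/small) on the 8 arrays, in the order of lot, pool pair and dye of the large fish, for A_05_P248684 (left, black) and A_05_P246154 (right, black) with the 5 named probes nearest to each (coloured). On the left the curves share low values on 3 of the 4 Dec. arrays and on the Sept. pair 2 array with the large fish in Alexa Fluor 647, where A_05_P248684 was -0.47, and lie nearer to 0 (-0.24 to 0.02) on the Dec. pair 1 array with the large fish in Alexa Fluor 647. On the right most points lie within 0.30 of 0.

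Other interferon-induced transcripts were split in direction. The list held 10 probes other than Mx, 9 of them measured on all Dec. arrays. In the Dec. lot 3 passed the threshold of the study's methods (unadjusted p up to 0.05 and at least 1.2-fold) as higher in small fish and 3 as higher in large fish, where 7.59% and 6.54% of all Dec. probes did so, and 0 passed limma's adjusted test. Their median was -0.05, against -0.01 over all Dec. probes, and it was 0.25 without Dec replicate 2, the second pool pair. With only arrays that had the large fish in Alexa Fluor 555 it was -0.18, and with only the others 0.01. The study had listed 4 of these 9 for Dec. muscle on these same arrays, so their direction is not independent evidence. For the 5 probes not listed for Dec. muscle the median was 0.23. These are not unselected either, since helicase c domain-containing protein 1 and the 6-16 family probe were on the study's Sept. muscle lists. Of the 10 probes of the list, 9 had been named in the study's lists. Over all Dec. probes limma called 15.4% at an unadjusted p under 0.05 and 0 at an adjusted p under 0.05, and 7 of the 9 were among the former.

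The 3 that went the way of A_05_P248684 in Dec. fish were both probes of guanylate-binding protein 1 and a fish virus induced trim protein. Guanylate-binding proteins are interferon-induced GTPases related to Mx, and the fish virus induced TRIM proteins are a fish family found through its response to virus. Interferon-induced guanylate-binding protein 1 was 1.51-fold higher in small fish on probe A_05_P486782 (-0.59 ± 0.08) and 1.44-fold on probe A_05_P379977 (-0.53 ± 0.09), and the TRIM probe was 1.44-fold higher (-0.53 ± 0.09). All 3 were below 0 on each of the 4 Dec. arrays, from -0.95 to -0.15. Their Sept. means were 0.09 ± 0.08, -0.14 ± 0.09 and 0.01 ± 0.09, and none passed there. Behind the Sept. mean of A_05_P486782 stood values of -0.30 and -0.21 with the large fish in Alexa Fluor 555 and of 0.37 and 0.50 with them in Alexa Fluor 647, a split by dye that the averaging of swapped arrays evens out. Its Dec. values were -0.70 and -0.95 against -0.39 and -0.32, lower with the former dye again but below 0 with both. The study had listed all 3 for small Dec. fish. With only arrays that had the large fish in Alexa Fluor 647, the TRIM probe no longer passed (-0.25), and with only those in Alexa Fluor 555 A_05_P379977 did not (-0.34).

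The 3 that went the opposite way were an interferon-induced transmembrane protein, a gamma-interferon-inducible lysosomal thiol reductase precursor and a gig2-like protein. Interferon-induced transmembrane proteins hinder the entry of viruses at the cell membrane, and that probe was 2.16-fold higher in large Dec. fish (1.11 ± 0.14), between 0.64 and 1.47 on the arrays. The lysosomal thiol reductase, which opens disulphide bonds of proteins so that antigens can be presented, was 1.44-fold higher in large Dec. fish (0.53 ± 0.09) and had not been listed for muscle. The gig2-like protein, of a virus-induced gene family known from carp, was 0.27 ± 0.07 and above 0 on 3 of 4 arrays. It did not pass without Dec replicate 1 (0.30), where the error was larger. Without Dec replicate 2 it did not pass either, as its value (0.25) was under 1.2-fold. Sept. means of these probes lay between 0.03 and 0.09.

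The remaining interferon-induced probes were near 0 or differed in sign between lots. Helicase c domain-containing protein 1 (interferon-induced), a cytoplasmic sensor of viral RNA, was between -0.30 and -0.24 on the 4 Sept. arrays (-0.27 ± 0.08) and passed the methods' threshold in small Sept. fish, but in the Dec. lot it was 0.23 ± 0.08 and did not. The interferon-induced 6-16 family probe was 0.51 ± 0.17 in the Sept. lot, passed in large fish and was -0.05 ± 0.17 in the Dec. lot, with -0.78 on 1 array. Of all Sept. probes, 1.16% were past the threshold in large fish and 1.63% in small fish. In limma 3.57% had an unadjusted p under 0.05 and 0 an adjusted one. Among the 10 Sept. probes of the list only the helicase and the 6-16 probe passed, and the study had listed both for Sept. muscle on these same arrays. Neither passed with either Sept. pool pair left out. The helicase was then -0.28 without Sept replicate 1 and -0.26 without Sept replicate 2, and the 6-16 probe was 0.57 and 0.45. The protein kinase pkz was 0.08 ± 0.07 and -0.09 ± 0.07 in the Sept. and Dec. lots, and helicase mov-10 was 0.01 ± 0.08 in the Sept. lot and lacked a value on 1 Dec. array. The Sept. median of the list was 0.05. For the difference between the lots, 6 of 9 probes passed the methods' threshold and 0 the adjusted test, and 9.22% of all probes passed the former. Of the Dec. minus Sept. differences, that of A_05_P486782 was -0.68 ± 0.11 and that of the transmembrane protein 1.08 ± 0.20.

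**Figure D3:**
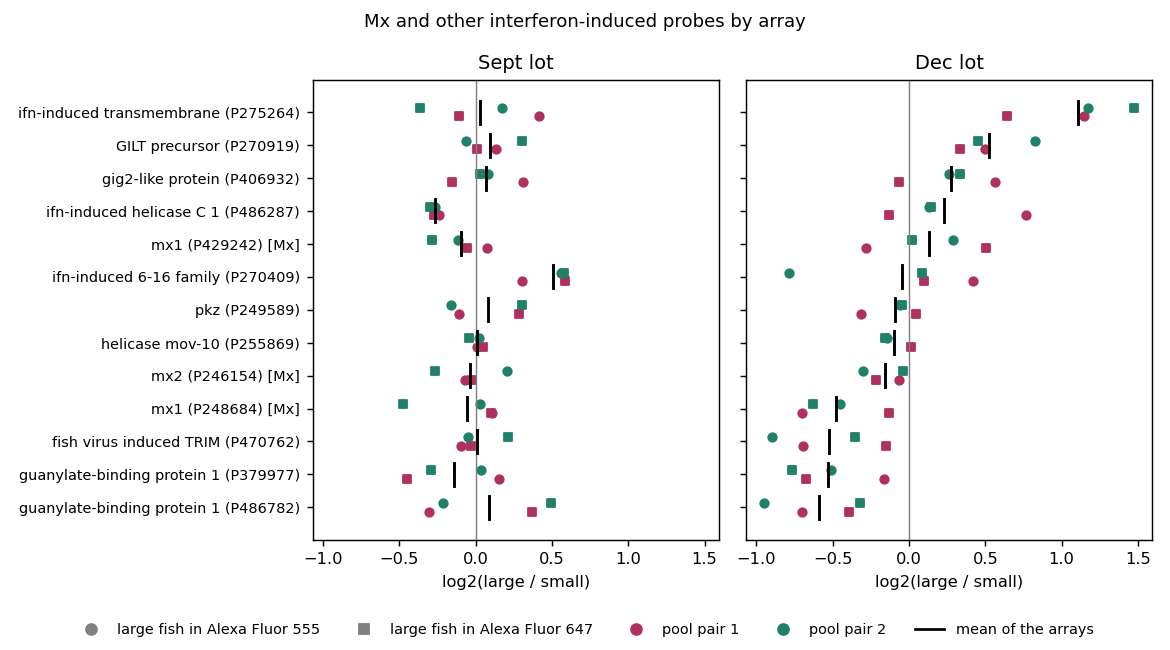
The log2(large/small) of the 3 Mx probes and the 10 other interferon-induced probes on the 4 Sept. arrays (left) and the 4 Dec. arrays (right), ordered by the Dec. mean. Colours mark the pool pair, circles and squares the dye of the large fish, and black bars the mean of the arrays (3 arrays for helicase mov-10 in the Dec. lot). In the Dec. panel A_05_P248684 stands with the TRIM and guanylate-binding probes between -0.59 and -0.48, and the transmembrane protein is at the other end at 1.11.

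A further list took in interferons, their signalling and regulatory factors and pathogen receptors. Its probe means lay near 0, from -0.16 to 0.09 in the Sept. lot and from -0.08 to 0.16 in the Dec. lot. This list had 7 probes, among them toll-like receptor 5 membrane form, a receptor for bacterial flagellin and not for virus. The interferon-induced helicase, a viral RNA sensor described above, was not on it. Of the 7, 0 passed the methods' threshold or an unadjusted p under 0.05 in limma in either lot. Among all probes, 15.4% of the Dec. and 3.57% of the Sept. ones had such a p. With only 7 probes, a count of 0 therefore does not set the list apart. On all 4 Dec. arrays 2 of them, interferon alpha 2 and toll-like receptor 5, were above 0. The share of all probes above 0 on these 4 arrays was not counted, so no conclusion is drawn from the 2. Interferon alpha 2 (ifna2) had a Sept. mean of 0.003 ± 0.09 and a Dec. mean of 0.16 ± 0.09, and those of interferon gamma (ifng) were 0.02 ± 0.08 and -0.01 ± 0.08. The transcription factors irf-1 and irf-2, which bind the promoters of interferon-induced genes, were 0.11 ± 0.07 and -0.08 ± 0.11 in Dec. fish. The medians were 0.02 and 0.11. In ratios without levels, a transcript that is hardly expressed also gives values near 0, so this does not show that the signal was equal in large and small fish.

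Antigen presentation transcripts, many of them interferon-induced too, lay mostly above 0 in Dec. fish, opposite to A_05_P248684. Of 13 probes 11 were above 0 in the Dec. lot and 5 passed the methods' threshold in large fish, 0 in small fish and 0 the adjusted test, where 18530 of all 39770 Dec. probes were above 0 and 6.54% passed in large fish. Beta-2-microglobulin precursor, the light chain of MHC class I, was 2.05-fold higher in large fish (1.03 ± 0.20), the gamma chain of h-2 class ii histocompatibility antigen 1.90-fold (0.93 ± 0.09) and proteasome subunit beta type-9 precursor, of the immunoproteasome, 1.87-fold (0.90 ± 0.14). The study had listed these 3 for large Dec. fish, and the 10 others had a median of 0.12, against 0.20 for the list and -0.01 for all probes. The list's median was 0.35 without Dec replicate 1 and 0.09 without Dec replicate 2. Of the others, psmb9b, another name for that subunit, was 0.36 ± 0.09 on probe A_05_P441057, which passed, and -0.05 ± 0.08 on probe A_05_P249239, so probes of 1 gene parted here too. The Sept. median of the list was 0.04, and 0 of 13 passed, at an unadjusted p under 0.05 in limma as well. In that lot the h-2 class ii probe split by dye. It was -0.74 with the large fish in Alexa Fluor 555 and 0.90 with them in Alexa Fluor 647. Beta-2-microglobulin was -0.30 and 0.34 in the same order. In Dec. pool pair 1 the h-2 class ii probe was 1.48 and 0.18. It is also on the leukocyte list below.

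**Figure D4:**
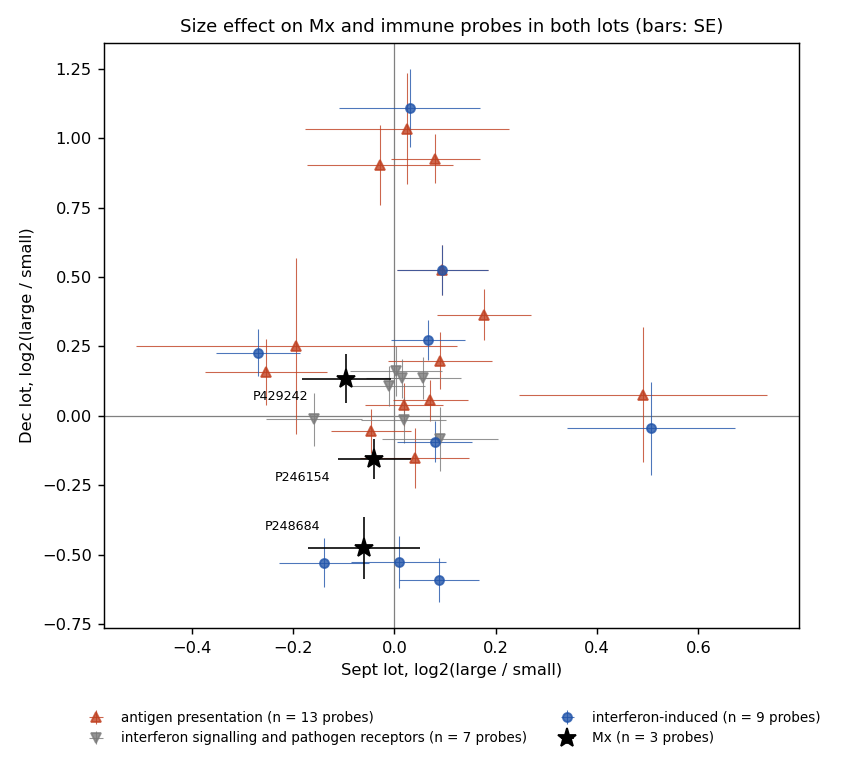
Mean log2(large/small) in the Sept. lot against that in the Dec. lot for the Mx, interferon-induced, interferon signalling (interferons, regulatory factors and pathogen receptors) and antigen presentation probes measured on all arrays, with the SE of the fit (n = 2 pool pairs per lot). The gamma-interferon-inducible lysosomal thiol reductase precursor belongs to both the interferon-induced and the antigen presentation list and has a point for each at 0.53. The Mx probes lie within 0.10 of 0 on the Sept. axis and at -0.48, -0.15 and 0.13 on the Dec. axis.

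Among the other members of the dynamin family that have a name, dynamin 1, which pinches off membrane vesicles, was 1.51-fold higher in small Dec. fish (-0.60 ± 0.10), and atlastin 3, which shapes the endoplasmic reticulum, was 1.42-fold higher in large Dec. fish (0.51 ± 0.08). With the guanylate-binding probes, 3 of 4 passed the methods' threshold in small and 1 in large Dec. fish, against 7.59% and 6.54% of all Dec. probes and with 0 past the adjusted test, and all 4 had been listed by the study for this lot. Of these Sept. values 0 of 4 passed, at an unadjusted p under 0.05 in limma as well. On only arrays with the large fish in Alexa Fluor 647 dynamin 1 did not pass (-0.19).

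Markers of cells other than muscle fibres were also looked up by name. Most names come from the study's lists of differing transcripts, so such probes are not a sample of unselected ones. Of 16 leukocyte probes measured in the Dec. lot, 6 passed the methods' threshold in large fish and 6 in small fish (median 0.03), against 6.54% and 7.59% of all Dec. probes, and 0 passed the adjusted test. Of these, leukocyte surface antigen cd53 (0.93 ± 0.19) and c-type lysozyme (1.04 ± 0.18) were examples of the former. Examples of the latter were CD209 antigen-like protein D (-0.68 ± 0.10, but 0.17 on 1 array) and CD83 antigen (-0.38 ± 0.10). Other probes of that CD209 name were at -0.37 ± 0.08 and 0.02 ± 0.12. The largest means were in large fish, for c-c motif chemokine 13 precursor (1.81 ± 0.65), an interleukin-8 like chemokine (1.24 ± 0.14) and cd302 antigen precursor (1.13 ± 0.35). Chemokine 13 leaned on pool pair 2, with 0.56 and 3.07 in the pairs, as did cd302 with 0.48 and 1.79. The interleukin-8 like probe was 1.01 and 1.47. The study had listed 11 of the 16 for this lot on these same arrays, so their passing is not independent evidence. The red blood cell list had a Sept. median of 0.63, with 0.51 and 0.63 in the pool pairs. In that lot 12 of 15 probes were above 0, against 19950 of all 41524 Sept. probes. Of these 15 the study named 6 for Sept. muscle, among them 5-aminolevulinate mitochondrial (-0.34), listed for small fish. Without the 6 the median fell to 0.04. Hemoglobin probes left in it were still at 0.80, 0.75, 0.63 and 0.46, and the rest lay between -0.03 and 0.04. The Dec. median was 1.30, with 0.06 in pool pair 1 and 2.97 in pool pair 2. Here only 1 of the 15 was on the study's Dec. lists, and without it the median was 1.44. In the Dec. lot 2 of the 15 red blood cell probes passed the methods' threshold in large fish and 2 in small fish. A_05_P248684 was 0.10 and -0.22 in the Sept. pool pairs and -0.41 and -0.54 in the Dec. pool pairs. The list taken by name for fast white muscle had medians of -0.12 and -0.32 in the Sept. and Dec. lots. That list also holds names that state no fibre type, such as myosin light chain 3-like (-2.23 in Dec. fish), alpha actin and creatine kinase. Of its 14 probes 10 were below 0 in the Dec. lot, against 21240 of all 39770 Dec. probes. For each lot 8 of the 14 came from the study's lists of differing muscle transcripts. Without these 8 the medians were near 0, at 0.04 in Sept. and -0.04 in Dec. fish. The listed probes were picked as differing on these same arrays. Leaving them out therefore tends to pull the median towards 0 and is no check of the list. The part of blood, leukocytes and muscle fibre content in the Mx ratio was not tested, and in pooled tissue fewer cells of a type and less RNA per cell cannot be told apart.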

How the data were processed

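White muscle mRNA of large and small trout was compared on 8 two-colour Agilent salmonid arrays. Per the study's methods, the authors read the scans in GenePix Pro, flagged bad spots by eye, filtered weak data points and normalised by lowess in GeneSpring GX. Each array has a column of deposited log2 ratios, and these were negated to give log2(large/small). Array medians then lay between -0.03 and 0.02 and standard deviations between 0.29 and 0.60. Whether the spread was also scaled is unknown. Of 43663 rows, 60 control features were left out. A value was present for 41909 to 43249 probes per array, and 38488 had one on all 8.

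Swapped arrays were averaged, and limma 3.58.1 (lmFit, eBayes, R 4.3.3) estimated both lot means from the pool pairs in a joint fit, over 41524 Sept. and 39770 Dec. probes. p-values were adjusted by Benjamini-Hochberg, with a threshold of 0.05. Probes past the methods' threshold (unadjusted p up to 0.05, 1.2-fold or more) were counted too. The p in these counts was limma's, so only the cut-offs were the study's. The script was tested on simulated data. The p-values measure the spread between pools, which average over fish.

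Names came from the platform annotation (221 probes) and the study's lists (1308 probes). Members and gene lists were chosen with earlier results of these data known. Named are the Mx probes, every interferon-induced and dynamin family probe, examples from the other lists, and the 5 named probes nearest to each Mx probe by root mean square difference over the arrays. Alternatives were a single dye orientation, centred arrays, each pool pair left out, a replicate block, only probes on all 8 arrays, a dye term with a random pool pair, each lot alone and the methods' t-test.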

Additional observations from a re-analysis of the deposited data

Results flagged for a closer look

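Of 67 sets of 4 arrays (a probe in a lot) from the Mx, interferon-induced, interferon and pathogen receptor, antigen presentation and dynamin family probes, 4 had an array whose gap to the nearest other array was over Dixon's 95% critical share of the set's range, and chance gives about 1 in 20. The arrays of a set are not independent, since swapped arrays carry the same RNA. The mx1 probe A_05_P248684 was -0.473 on the Sept. pair 2 array with the large fish in Alexa Fluor 647 and between 0.0262 and 0.1062 on the other 3, and this array gave the Sept. mean its sign. The interferon-induced 6-16 family probe was 0.306 on the Sept. pair 1 array with the large fish in Alexa Fluor 555, against 0.556 to 0.584 on the others. On the Sept. pair 1 array with the large fish in Alexa Fluor 647, the immunoproteasome probes psmb9a and psmb8b stood apart in opposite directions, at 1.92 and -0.366.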

How the results depend on the processing

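The Dec. value of A_05_P248684 (-0.48) ran from -0.57 to -0.38 under the 10 alternatives that gave one, and that of A_05_P246154 (-0.15) from -0.18 to -0.13. Both probes were below 0 on every Dec. array, so a mean over part of these arrays had to be below 0 too. The constant sign is therefore no check of its own. The Sept. values had no stable sign. That of A_05_P248684 ran from -0.22 to 0.10 with a pool pair left out, and that of A_05_P246154 was 0.0676 with only arrays that had the large fish in Alexa 555 and -0.15 with only those in Alexa 647. The Dec. minus Sept. difference of A_05_P248684 was -0.64 and -0.19 on these same sets of arrays, and from -0.58 to -0.25 with a pool pair left out. The Sept. median of the interferon-induced list (0.0485) was 0.025 with the large fish in Alexa 555, 0.0663 both with the replicate block and with only probes on all 8 arrays, which leave 9 probes, and from 0.052 to 0.0634 with a pool pair left out. Its Dec. median (-0.0452) ran from -0.0524 to 0.249 with a pool pair left out.

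Counts of probes past the methods' threshold depended on the arrays used. With only arrays that had the large fish in Alexa 555, 2006 Sept. probes and 5407 lot differences passed, against 1157 and 3550 with all arrays. With only those in Alexa 647, 2509 Sept. probes, 2216 Dec. probes and 1409 lot differences passed, against 5619 Dec. probes with all arrays. The methods' t-test on the arrays gave 369 Sept. and 892 Dec. probes, and 0 and 0 after Benjamini-Hochberg adjustment. With a pool pair left out, between 1135 and 2072 Sept. probes and between 2030 and 5573 lot differences passed. Dec. probes at an adjusted p under 0.05 numbered 0 with all arrays, 8 with a dye term and a random pool pair, and between 0 and 355 with a pool pair left out. The 355 were found without Dec replicate 1, a fit in which the remaining Dec. pair took its spread from the Sept. pairs.

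Per the study's methods, in each lot the largest fish were set against the second smallest, and the second largest against the smallest. The labels do not say which pairing has which number, so same-numbered pool pairs of the lots may share size ranks. Deviations of same-numbered pairs correlated at 0.07 across 38488 probes. With the replicate block 1404 Sept. probes, 6149 Dec. probes and 3579 lot differences passed the methods' threshold. The cause of these shifts was not tested. Spot intensities were not analysed here, so signal over background does not enter any value.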
